A study of Drosophila melanogaster with 2 samples.

Results

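Cytosolic ribosomal protein genes and the genes of translation initiation and elongation factors were followed on 2 dye-swapped arrays of fruit fly larvae. The genes were chosen by name: current symbols that begin with RpL, RpS, eIF or eEF, together with sta and Rack1, among probes annotated with exactly 1 gene. The platform annotation named 85 such genes, out of 12236 genes with a probe of their own. They were 40 ribosomal protein genes, Rack1 included, and 45 factor genes. Mitochondrial ribosomal protein genes, whose symbols begin with mRp, were kept apart.

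Each array compared RNA of control Drosophila melanogaster larvae, labelled GMR X GFP-NLS, with RNA of larvae labelled GMR X GFP-B52. Fly geneticists use GMR, carried by both crosses, to drive genes in the developing eye. Both groups also carried green fluorescent protein, sent to the nucleus by a localisation signal in the controls and fused to the SR-type splicing factor B52 in the other larvae. The series asked whether a raised level of B52 changes the expression of other genes. The labels name larvae and no dissected tissue, age or strain, and do not say whether animals were pooled or whether the arrays held separate extracts, so the spread between them may be technical. On replicate 1 the B52 RNA carried Cy5 and on replicate 2 it carried Cy3. Cytoplasmic RNA was the labelled molecule of the replicate 1 control, and polyA RNA that of the other channels. In such bulk RNA, fewer cells of a type and less RNA per cell cannot be told apart.

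The cytosolic ribosome makes all proteins encoded in the nucleus. A large and a small subunit, each built on ribosomal RNA with a set of small basic proteins, join on a messenger RNA that initiation factors have prepared, and elongation factors then deliver transfer RNAs and move the ribosome forward. In fruit flies, loss of 1 copy of many ribosomal protein genes gives the Minute phenotype of slow development and thin bristles. Several of the proteins have a second gene copy, and some of these copies are used mainly in the germline.

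The deposited value of a spot was a log ratio of the 2 channels, with its base and direction not stated, so each result is given in 2 readings. The channel reading takes every value as B52 over control. The dye reading takes it as Cy5 over Cy3 and so reverses replicate 2. A gene with the same deposited sign on both arrays therefore has 1 direction in the channel reading, and a gene with opposite signs has 1 direction in the dye reading. The readings cannot both hold. Only ratios were deposited, so no expression level can be given for any gene.

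Of the 85 genes, 80 had a value on both arrays: 23 of the large subunit, 16 of the small subunit, 36 initiation factors and 5 elongation factors. Of all named genes, 13.5% lacked a value on at least 1 array. The 5 genes without a complete pair were RpL10Aa, eIF3f2, eIF3g2, eIF4E3 and eIF4E4. Each of them shares its name stem with another gene, as RpL10Aa does with RpL10Ab. They were 5 of 32 genes with such a shared stem (15.6%), against 0 of 53 genes that are the only gene of their name. eIF4E3, which encodes a cap-binding protein used in spermatogenesis, had only a value of 0.133 on replicate 2, and RpL10Aa only 0.101 there. eIF3g2 had only a value of 0.513 on replicate 1. Genes such as sta, RpS6, eEF1alpha1, eEF2 and eIF2alpha had no probe annotated to them alone and are not analysed here.

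No member passed the test in either reading. The test was limma's moderated test of the gene mean against 0, with Benjamini-Hochberg adjustment over all 11883 features at 0.05. Limma called 0 of 80 members by the channel reading, where it called 0% of all features. At an unadjusted p under 0.05 it had 3 of 80 members (3.75%), against 6.86% of all features. The dye reading likewise had 0 of 80 members and 0% of all features called by limma, and its members at an unadjusted p under 0.05 were 2 of 80 (2.5%) against 5.55% of all features. The lowest adjusted p of a member was 0.653 with channel orientation and 0.882 with dye orientation. Limma's robust option called 0 members too, with 3 and 1 of them at an unadjusted p under 0.05 in the channel and dye readings. These were 3.75% and 1.25% of the members, against 6.85% and 5.37% of all features. An ordinary unmoderated test called 0 and had 8 and 5, which is 10% and 6.25% of the members against 5.84% and 4.83% of all features, above the background where limma's shares were below it. In simulated data of the channel reading, limma recovered 91.2% of features given a log ratio of 1 and 0.8% of those given 0.30, so differences of the size seen here were rarely detectable with 2 arrays.

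The members lay slightly off 0, in opposite deposited directions on the arrays. On replicate 1 their median was -0.037, and 57 of 80 were below 0 (71.2%, against 49.9% of all named genes). On replicate 2 their median was 0.065, and 57 of 80 were above 0 (71.2%, against 53.8% of all named genes). Over all 10584 named genes the medians were 0.001 and 0.014. Under the dye reading this pattern is a lower value in B52 larvae on both arrays: the median of the members was -0.0488 ± 0.0198 (SD of the array medians, n = 2 arrays), against -0.0075 ± 0.0106 for all named genes. For log10 values that is 1.12-fold, for log2 values 1.03-fold. Under the channel reading the directions of the arrays opposed each other and the median was 0.025 ± 0.0721, with 0.0085 ± 0.0092 for all named genes.

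**Figure D1:**
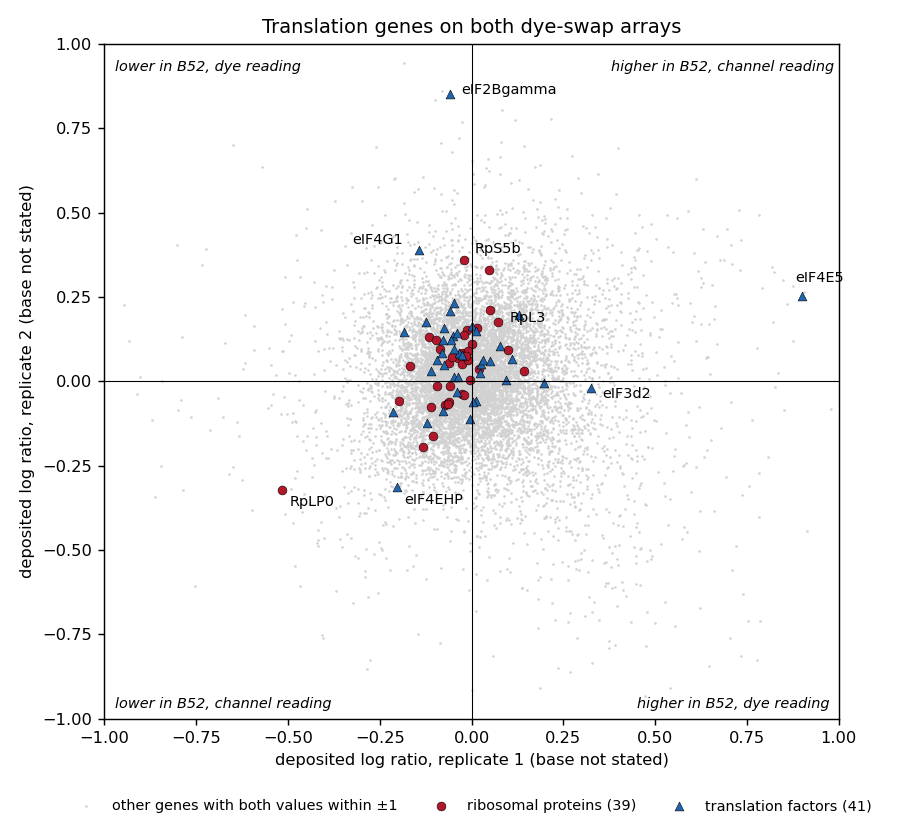
Deposited log ratio of each gene on replicate 1 (horizontal) against replicate 2 (vertical), base not stated; red circles are 39 ribosomal protein genes, blue triangles 41 translation factor genes, and grey points other named genes with both values within 1 of 0. Italic text names the direction of each corner. Of the 80 members, 38 lie towards the upper left and 4 towards the lower right.

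Counted by sign, 38 of 80 members were lower in B52 larvae on both arrays in the dye reading (47.5%, against 25.6% of all named genes). There 4 were higher on both (5%, against 21.9%). By the channel reading 19 were higher on both arrays (23.8%, against 28.1%) and 19 lower on both (23.8%, against 24.3%). With the median of each print block removed, 33 members were lower in the dye reading and 4 higher, against 25.6% and 25.2% of all named genes. The channel-reading shares of the members were thus near those of all genes, while the dye-reading shares lay further from them. These counts were not tested.

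The members' values lay in a narrower range than those of all genes, which was not tested. Both deposited values lay within 0.1 of 0 for 39 of 80 members (48.8%), against 28.2% of all named genes. The interquartile range of the members was 0.0832 on replicate 1 and 0.147 on replicate 2, against 0.187 and 0.214 for all named genes. A value of at least 0.30, which is 2-fold if the values are log10, was reached on 1 or both arrays by 8 members (10%), against 14.5% of all named genes. These were RpLP0, RpS30, RpS5b, eIF2Bgamma, eIF3d2, eIF4E5, eIF4EHP and eIF4G1. With print-block medians removed, RpS30, RpS5b, eIF4EHP and eIF4G1 stayed below that size on both arrays. On replicate 2 they then had 0.257, 0.224, -0.252 and 0.221. As deposited, only RpLP0 reached 0.30 in size with the same sign on both arrays. That is lower in B52 larvae in the channel reading, a call met by 1 of 80 members and 0.425% of all named genes. The corresponding shares of all named genes were 0.728% for higher in the channel reading, 1.13% for higher in the dye reading and 0.189% for lower in the dye reading, with 0 members in each.

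Ribosomal proteins and translation factors had nearly the same medians. The 39 ribosomal protein genes had a median of -0.027 on replicate 1 and one of 0.064 on replicate 2, and the 41 factor genes had -0.041 and 0.066. The dye-reading medians over genes were -0.047 ± 0.0262 for ribosomal proteins and -0.052 ± 0.0177 for factors (SD of the array medians, n = 2 arrays). The difference of the array medians, ribosomal proteins minus factors, averaged over the arrays, was 0.008 ± 0.0085 in this reading. The channel-reading medians were 0.012 ± 0.0643 and 0.0265 ± 0.0757, lower for ribosomal proteins, while the mean difference of the array medians was 0.006 ± 0.0113, of the opposite sign. The difference was thus smaller than its spread between arrays in each reading. No exact test over 2 arrays can give a p below 0.5, so none was run.

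The signs of both sets were counted as well, and no difference between the sets was tested. Of 39 ribosomal protein genes, 18 were lower in the dye reading on both arrays (46.2%) and 0 higher, against 25.6% and 21.9% of all named genes. The other 21 had the same deposited sign on both arrays, 13 of them below 0 (33.3%, against 24.3%) and 8 above (20.5%, against 28.1%). Of 41 factor genes, 20 were lower (48.8%) and 4 higher (9.76%) in the dye reading. Both values were below 0 for 6 factor genes (14.6%) and above 0 for 11 (26.8%), the second near the share of all named genes. The deposited values of the arrays had a Pearson correlation of 0.632 over the 39 ribosomal protein genes, 0.478 without RpLP0, 0.114 over the 41 factor genes and 0.0148 over all named genes. These correlations are across genes, which share the arrays and the dyes and are not independent replicates. With print-block medians removed, 13 of 39 ribosomal protein genes (33.3%) were lower in the dye reading on both arrays, nearer the 25.6% of all named genes. The factor genes kept 20 of 41 (48.8%). In that setting both values were below 0 for 14 ribosomal protein genes (35.9%) and 4 factor genes (9.76%), against 23.7% of all named genes.

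**Figure D2:**
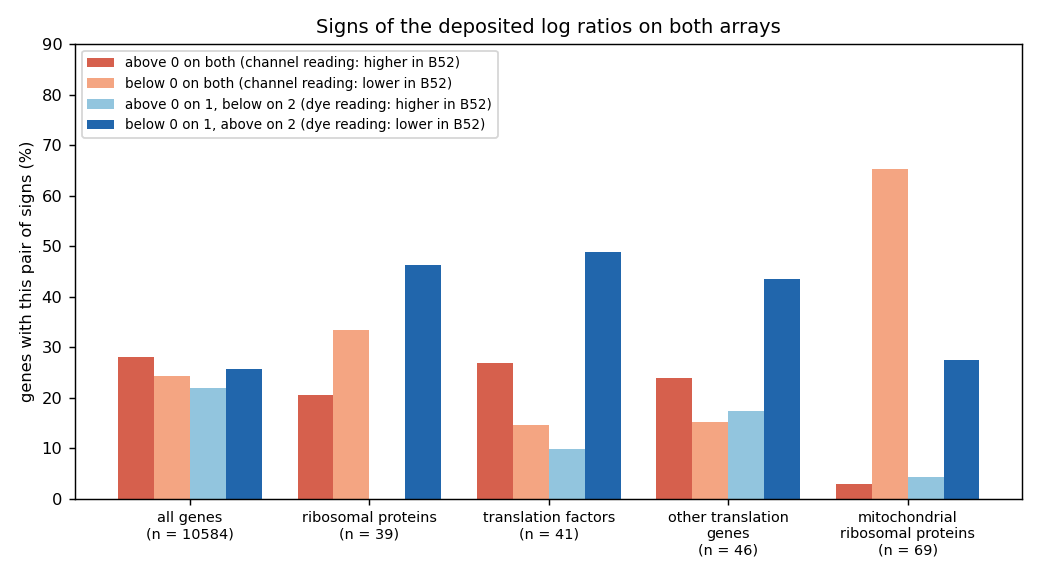
Share of genes (%) with each pair of deposited signs on the 2 arrays, for all named genes and for 4 gene sets, with the direction that the pair has in a reading. The bar for opposite signs with replicate 1 below 0 reaches 46.2% in ribosomal proteins and 48.8% in translation factors, against 25.6% in all genes, and mitochondrial ribosomal proteins have 65.2% below 0 on both arrays.

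The large subunit had 21 of 23 genes below 0 on replicate 1 (91.3%, against 49.9% of all named genes), with a median of -0.054. On replicate 2 it had 15 above 0 (65.2%, against 53.8%), with a median of 0.055. That count depended on the print blocks. With their medians removed, RpL17, RpL22-like, RpL34a, RpL36A and RpL37-1 fell below 0 on replicate 2, and RpL32 and RpLP0-like rose above it. The genes RpL3 and RpL15 were the exceptions on replicate 1. RpL3, a core protein near the site where peptide bonds form, was measured by 4 probes. Its probes lay between 0.018 and 0.109 on replicate 1 and between 0.136 and 0.23 on replicate 2, all above 0. The channel-reading mean of RpL3 was 0.12 ± 0.07 (SD, n = 2 arrays) and its dye-reading mean -0.05 ± 0.18. RpL15 had 0.002 and 0.11, and -0.0665 and 0.012 with print-block medians removed.

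RpLP0 encodes the base of the stalk through which the large subunit recruits elongation factors. Its single probe had -0.515 on replicate 1 and -0.321 on replicate 2, the lowest value among members on each array. Among all named genes these values stood at percentiles 0.505 and 3.82. Its mean was -0.42 ± 0.14 (SD, n = 2 arrays; limma adjusted p = 0.653) in the channel reading, which is 2.62-fold for log10 and 1.34-fold for log2 values, and -0.10 ± 0.59 in the dye reading. The other stalk proteins were near 0: RpLP1 had -0.025 and -0.038, and RpLP2 had -0.01 and 0.091. The print block of the RpLP0 probe had medians of -0.066 and -0.108, and with them removed RpLP0 had -0.449 and -0.213. With a single probe, a change of the transcript and a property of that spot cannot be told apart.

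Among other large subunit genes with the same sign on both arrays, RpL37-2 had -0.104 and -0.163, RpL32 had -0.095 and -0.013, RpL23 had -0.072 and -0.07, and RpL29 had -0.065 and -0.063. Ranked by the smaller absolute value of both arrays, the leading large subunit genes of the dye reading were RpL24-like, with deposited values of -0.117 and 0.131, RpL22-like, with -0.087 and 0.096, and RpL28, with -0.062 and 0.055. That ranking favours genes whose arrays are alike in size. RpL22-like is a copy of RpL22 used in the male germline, and the yeast relative of RpL24-like is an assembly factor of the large subunit. Their dye-reading means were -0.12 ± 0.01 for RpL24-like, -0.09 ± 0.01 for RpL22-like and -0.06 ± 0.0049 for RpL28 (SD, n = 2 arrays). By the mean alone RpL27 ranked above RpL22-like, at -0.11 ± 0.09, and RpL37-1 above RpL28, at -0.08 ± 0.10. After removal of print-block medians, RpL24-like had -0.1475 and 0.044, RpL22-like had -0.105 and -0.001, and RpL28 had -0.063 and 0.051. RpL22-like and RpL37-1 were then below 0 on both arrays, and RpL32 had opposite signs, -0.028 and 0.116.

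In the small subunit the deposited medians were -0.0205 and 0.075 over 16 genes. Of these, 5 were lower in the dye reading on both arrays (31.2%, near the 25.6% of all named genes) and 0 higher (against 21.9%). Both values were above 0 for 6 (37.5%, against 28.1%) and below 0 for 5 (31.2%, against 24.3%). Rack1, a scaffold protein on the head of the small subunit, had -0.027 and 0.085, and RpS7 had -0.0965 and 0.122 as the mean of 2 probes. RpS30, which is made as a fusion with a ubiquitin-like protein, had 0.047 and 0.33, and RpS5b, a copy of RpS5a used in the ovary, had -0.022 and 0.359. Both thus had a large value on replicate 2 alone. RpS10a, with 0.099 and 0.092, and RpS15Ab, with 0.0495 and 0.212, had the largest values above 0 on both arrays when ranked by the smaller of their 2 values. By the mean of both arrays RpS30 ranked above them. RpS28a had -0.199 and -0.058 and RpS15 had -0.063 and -0.067, below 0 on both. Without print-block medians RpS28a had 0.003 on replicate 2. RpS27A and RpL40, the ribosomal proteins made as fusions with ubiquitin, had -0.06 and -0.014 and, for RpL40, -0.011 and 0.064.

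**Figure D3:**
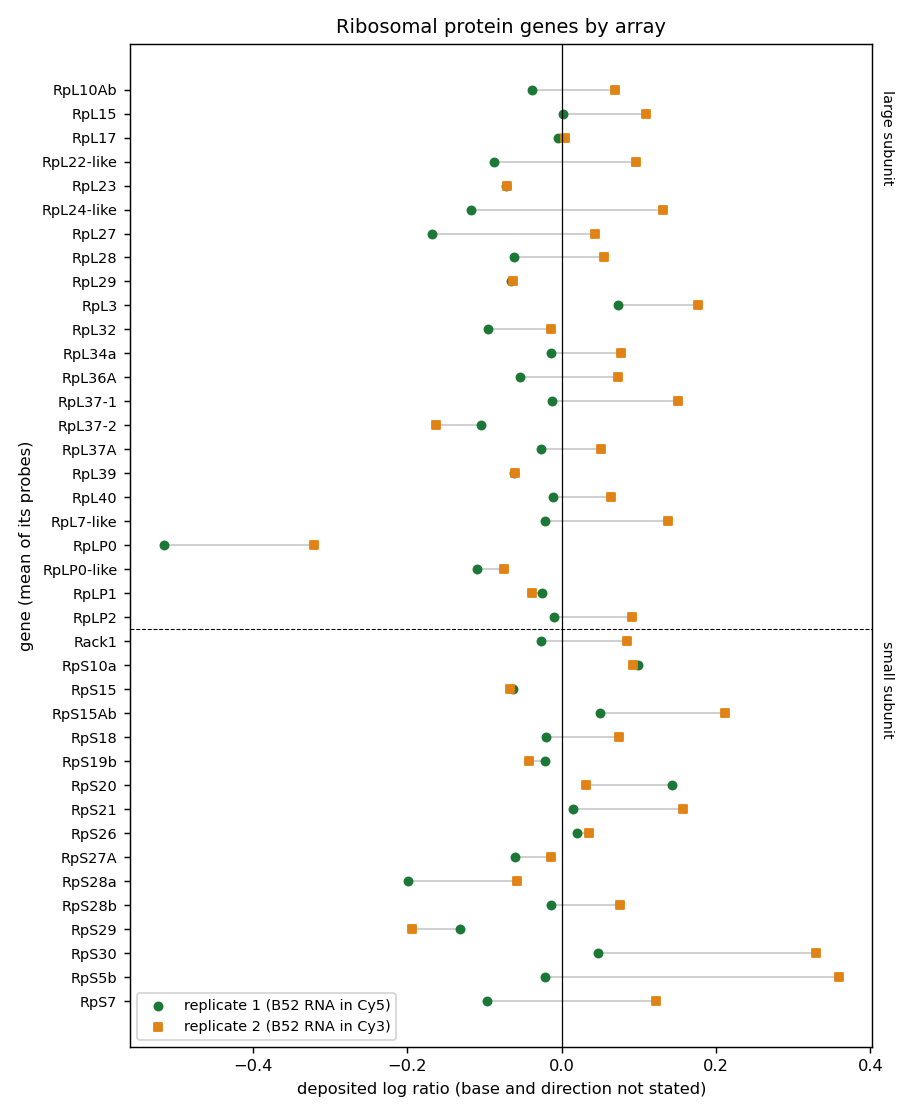
Deposited log ratio (horizontal, base and direction not stated) of the 39 ribosomal protein genes on replicate 1 (green circles) and replicate 2 (orange squares), each the mean of the gene's probes, with a grey line joining both arrays. RpLP0 stands apart at -0.515 and -0.321, and RpS5b and RpS30 have the highest values, 0.359 and 0.33, on replicate 2 alone.

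Probes of a gene did not always agree. RpS29 had 2 probes: one had 0.02 and 0.072, the other -0.282 and -0.459, so the mean of -0.16 in the channel reading rests on the second. The RpS7 probes had -0.25 and 0.057 on replicate 1 and 0.106 and 0.139 on replicate 2. The RpS15Ab probes had 0.104 and 0.32 on replicate 2, and those of eIF3b -0.107 and 0.096. Over the 8 members with several probes, the gap between the highest and the lowest probe of a gene ran from 0.004 to 0.307 on replicate 1 and from 0.031 to 0.531 on replicate 2. The larger gaps exceeded most of the differences between members.

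Initiation begins with the eIF2 complex, which brings the initiator transfer RNA, and with eIF2B, the exchange factor that recharges it. Of its subunits eIF2beta had -0.11 and 0.03. Of the 5 eIF2B subunits 4 had both values within 0.1 of 0. The exception was eIF2Bgamma, with -0.058 on replicate 1 and 0.853 on replicate 2, which stood at percentile 99.96 of all named genes there. Its dye-reading mean was -0.46 ± 0.56 (SD, n = 2 arrays; limma adjusted p = 0.884), so the spread between arrays exceeded the mean. eIF5, which triggers GTP hydrolysis by eIF2, had -0.123 and 0.176, a dye-reading mean of -0.15 ± 0.04. eIF2A and eIF2D, proteins outside the canonical pathway, had -0.059 and 0.207, and -0.122 and -0.125.

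The eIF3 complex, the large scaffold that binds the small subunit, had 14 measured genes with deposited medians of -0.044 and 0.1005. Of these, 9 were lower in the dye reading on both arrays (64.3%, against 25.6% of all named genes), and the median was -0.075 ± 0.04 (SD of the array medians, n = 2 arrays), or 1.19-fold for log10 and 1.05-fold for log2 values. They included eIF3d1 with -0.049 and 0.232, eIF3f1 with -0.074 and 0.157, eIF3l with -0.079 and 0.121, and the core subunit eIF3a with -0.051 and 0.133. eIF3e, eIF3g1 and eIF3j were above 0 on both arrays. eIF3b, another core subunit, and eIF3d2 went the other way, with 0.198 and -0.0055 for eIF3b and 0.325 and -0.02 for eIF3d2. On replicate 2 the eIF3b value is the mean of probes at -0.107 and 0.096. Without print-block medians eIF3b had 0.227 and 0.0342, above 0 on both arrays. The pair eIF3d1 and eIF3d2 thus had opposite signs on each array.

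The eIF4 group recognises the cap and unwinds the messenger RNA. Its 10 measured genes had deposited medians of -0.0035 and 0.0945, with 5 above 0 on both arrays (50%, against 28.1% of all named genes). Another 2 were below 0 on both (20%, against 24.3%) and 3 were lower in the dye reading (30%, against 25.6%), both near the background. eIF4A, the helicase, had 0.128 and 0.196, a channel-reading mean of 0.16 ± 0.05 (SD, n = 2 arrays), and eIF4B, which assists it, had 0.111 and 0.066. Without print-block medians eIF4B had 0.093 and -0.031. eIF4E1, the main cap-binding protein, had 0.032 and 0.064 as the mean of 2 probes, which differed in sign on replicate 2 (-0.06 and 0.188). eIF4G1, the scaffold that joins them, had -0.144 and 0.388, a dye-reading mean of -0.27 ± 0.17 with a limma adjusted p of 0.882. eIF4G2 had -0.039 and -0.032, and eIF4H2 had -0.183 and 0.146. eIF4EHP, a cap-binding protein that represses translation, was below 0 on both arrays, with -0.204 and -0.313. The mean of eIF4EHP was -0.26 ± 0.08 in the channel reading, with a limma adjusted p of 0.71.

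eIF4E5, 1 of 6 eIF4E genes numbered in the current annotation, had 0.901 on replicate 1 and 0.253 on replicate 2, the highest value of any member on replicate 1. Its channel-reading mean was 0.58 ± 0.46 (SD, n = 2 arrays; limma adjusted p = 0.69) and its dye-reading mean 0.32 ± 0.82. eIF4E6 had 0.049 and 0.059 and eIF4E7 had -0.056 and 0.123, so the measured eIF4E genes did not share 1 pattern. Of the remaining initiation factors, eIF1 had -0.049 and 0.012. eIF5B, the factor that joins the subunits, had 0.004 and -0.06. eIF6, which keeps the large subunit from joining early, had -0.005 and -0.113.

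The 5 elongation factors were all within 0.3 of 0. eEF1alpha2, which brings aminoacyl transfer RNA to the ribosome, had 0.001 and 0.165. Its exchange complex was measured through eEF1gamma, with -0.076 and 0.048, and eEF1delta, with 0.011 and -0.059 as the mean of 2 probes that differed in sign. eEF5, named eIF5A in other species, had 0.027 and 0.05. eEFSec, the elongation factor for selenocysteine, had the lowest values, -0.215 and -0.092, and a channel-reading mean of -0.15 ± 0.09 (SD, n = 2 arrays). With 5 genes no common direction was seen.

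**Figure D4:**
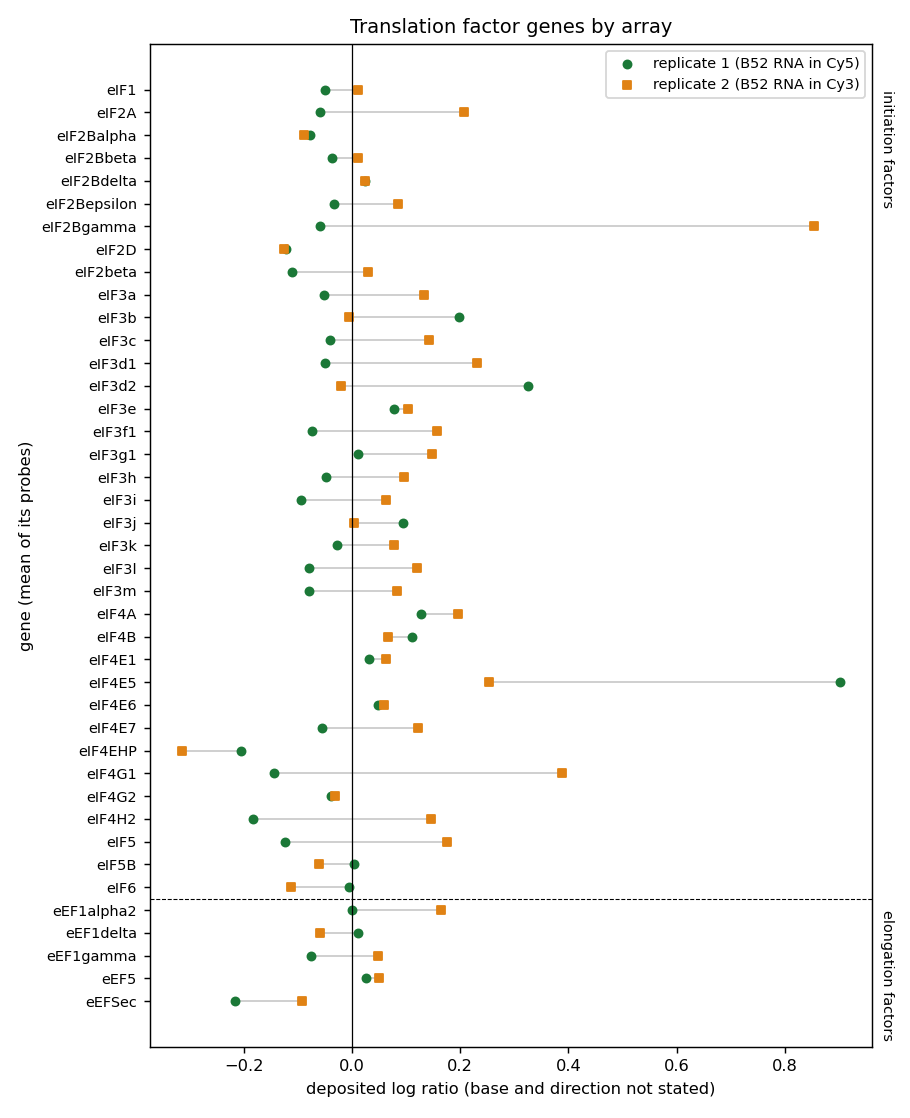
Deposited log ratio (horizontal, base and direction not stated) of the 36 initiation and 5 elongation factor genes on replicate 1 (green circles) and replicate 2 (orange squares), each the mean of the gene's probes. eIF4E5 at 0.901 on replicate 1 and eIF2Bgamma at 0.853 on replicate 2 stand apart, each on 1 array, and most eIF3 genes have the square to the right of the circle.

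Among the members, genes that share a name stem with another gene had larger values than genes that are the only one of their name. The larger absolute value of the 2 arrays had a median of 0.131 over 15 ribosomal protein genes with a shared stem and 0.0735 over 24 without. For factors the medians were 0.161 over 12 genes and 0.104 over 29. Both values lay within 0.1 of 0 for 9 of 27 members with a shared stem (33.3%) and for 30 of 53 others (56.6%). Over all named genes the share was 28.2%, near that of the members with a shared stem. The difference between members with and without a shared stem was not tested. Within pairs measured on both sides, RpL37-1 had -0.012 and 0.151 where RpL37-2 was below 0 on both arrays, and RpS28b had -0.014 and 0.076 where RpS28a was below 0 on both. RpLP0-like, whose yeast relative acts in ribosome assembly, had -0.11 and -0.075. These sign pairs depended on the print blocks. Without block medians RpL37-1 had -0.093 and -0.037 and RpL37-2 had -0.061 and -0.047, both below 0 on both arrays. RpS28b then had 0.0435 and 0.154, RpS28a -0.135 and 0.003, and RpLP0-like -0.067 and 0.041. The files do not say how far a probe can tell such copies apart, so values of near-identical copies are uncertain.

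**Figure D5:**
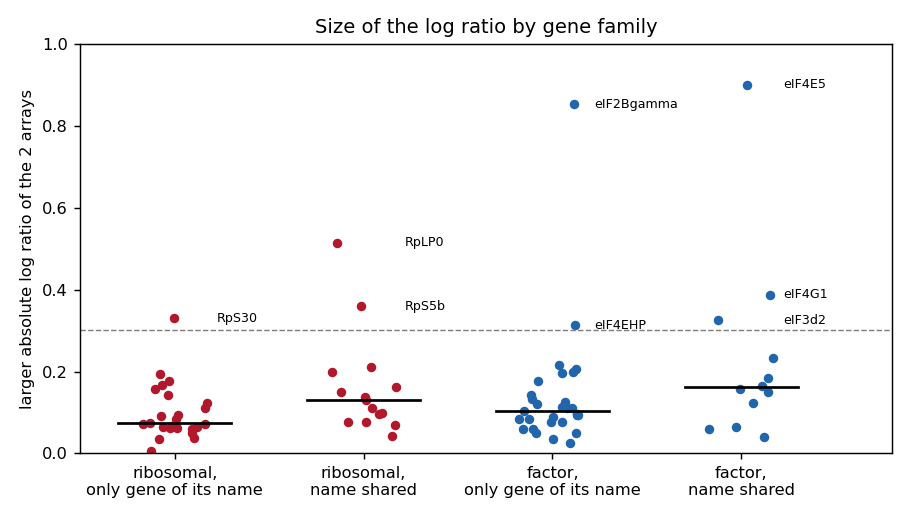
Larger absolute deposited log ratio of the 2 arrays for each measured member (points), by class and by whether its name stem is shared with another gene, with the median as a black bar and the 0.30 level as a dashed line. Medians are 0.0735 and 0.131 in ribosomal proteins and 0.104 and 0.161 in factors, and 8 members lie above the dashed line.

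Other genes of translation were read from a list of 54 names outside the members, of which 46 were measured. By the dye reading 20 were lower in B52 larvae on both arrays and 8 higher, against 25.6% and 21.9% of all named genes, and the median was -0.0232 ± 0.0159 (SD of the array medians, n = 2 arrays). By the channel reading 11 were higher on both arrays (23.9%, near the 28.1% of all named genes) and 7 lower (15.2%, against 24.3%). The aminoacyl-tRNA synthetases, which charge transfer RNAs, had 11 of 18 genes lower in the dye reading (61.1%), with a median of -0.0228 ± 0.0028. Farthest from 0 by the dye-reading mean were LeuRS, with -0.081 and 0.266, and GluProRS, with -0.09 and 0.201. Both values lay within 0.1 of 0 for 11 of the 18 synthetase genes (61.1%, against 28.2% of all named genes). Of 16 ribosome biogenesis genes 5 were lower in the dye reading (31.2%) and 7 were above 0 on both arrays (43.8%, against 28.1% of all named genes). The poly(A)-binding protein gene pAbp had 0.461 and -0.302 and its partner Paip2 had 0.13 and -0.23, both higher in the dye reading.

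Mitochondrial ribosomal protein genes had another pair of signs. Of 69 measured, 45 were below 0 on both arrays, which is lower in B52 larvae in the channel reading (65.2%, against 24.3% of all named genes), and 19 were lower in the dye reading (27.5%). Their deposited medians were -0.09 and -0.046. The median of the cytosolic ribosomal proteins exceeded theirs by 0.063 on replicate 1 and by 0.11 on replicate 2, a channel-reading mean of 0.0865 ± 0.0332 (SD, n = 2 arrays). The dye-reading difference was -0.0235 ± 0.122, smaller than its spread. With print-block medians removed, 43 of the 69 were below 0 on both arrays (62.3%, against 23.7% of all named genes).

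Markers of larval tissues were read on the same arrays. All 3 measured muscle markers were above 0 on replicate 1 and below 0 on replicate 2, with medians of 0.647 and -0.525. Of 5 eye disc markers 4 had the opposite pair of signs, and the medians were -0.133 and 0.096. The 3 fat body markers had medians of 0.173 and 0.064, the 5 salivary gland markers 0.023 and 0.014, the 3 testis markers 0.163 and -0.136, and the 2 germline markers -0.247 and 0.0375. Outside the muscle list, the measured markers of a list did not all share a pair of signs. The salivary gland marker Sgs1 had 0.491 and -0.519, Sgs4 -0.048 and 0.014, and Sgs5 -0.035 and -0.011, while Sgs3 and Sgs7 were above 0 on both arrays. The fat body marker Lsp2 had 0.141 and -0.118, the testis marker dj 0.391 and 0.155, and the eye disc marker gl 0.015 and 0.067. Of the germline markers, bam had -0.284 and 0.083 and piwi -0.21 and -0.008. The part of tissue makeup in the values of the translation genes was not tested.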

How the data were processed

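The authors deposited 1 log-ratio score per spot for each of 2 two-colour arrays of 15744 spots; no source used here gives its base, direction, normalisation or background correction. Replicate 1 had 13919 values and replicate 2 had 14026. On replicate 1, 5 spots held the code -10000 and were read as missing. The number of arrays limits the precision. Control positions (960 spots, unnamed in each of 24 sub-grids) were left out. The platform annotation gave 1 symbol to 13147 probes, several to 99 and none to 2498. Of the first, 12519 matched the RefSeq gene table by identifier, and the others kept the annotated symbol. The 3 probes annotated to both CG17672 and RpS12 were not used.

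Probes of a gene with values on both arrays were averaged, and unnamed probes stayed single, giving 11883 features, 10584 of them genes. Each was tested against 0 in both readings by limma 3.58.1 (lmFit, then eBayes; R 4.3.3) and adjusted over all features by Benjamini-Hochberg, and the script was tested on simulated data (10 draws). Tables and plots used Python 3.11.15, numpy 2.4.6, pandas 2.3.3 and matplotlib 3.10.9. Errors after ± are SDs over both arrays or over both array medians. In the ordinary test, features with equal values on both arrays (20 and 14) had no statistic. The members, lists, size levels and alternatives were chosen with earlier results of these data known. Named genes were up to 3 per group, reading and direction with the largest smaller absolute value of both arrays, preset core genes, gene pairs and genes with 3 or more probes; the others were named after their values were seen. Alternatives are listed in the closing section.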

Additional observations from a re-analysis of the deposited data

How the results depend on the processing

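Limma called 0 features in both readings under all alternatives run: centring, scaling, removal of print-block medians, probe level, median of probes, named probes alone, control positions kept, the 1% most extreme probes left out and the robust form; the ordinary test also called 0. In the dye reading the ribosomal protein median stayed below 0 in every alternative run, from -0.027 on replicate 1 alone to -0.064 on replicate 2 alone, and the factor median ranged from -0.041 to -0.066 on the single arrays. Without genes of a shared name stem, an alternative added after the data were seen, the factor median was -0.034. In the channel reading the single arrays had opposite signs, -0.027 and 0.064 for ribosomal proteins and -0.041 and 0.066 for factors. The difference between ribosomal proteins and factors in that reading was -0.017 with print-block medians removed, of opposite sign to the value given; on the single arrays it ran from -0.002 to 0.014. Members of at least a set size on both arrays, whatever their signs, numbered 11 at 0.1 and 0 at 1. The 11 do not belong to 1 reading: RpL24-like, eIF4G1, eIF4H2 and eIF5 had opposite signs and the others the same sign. With print-block medians removed the number at 0.30 was 0, and RpLP0 had -0.213 on replicate 2. Shares of all named genes were not computed for these alternatives, so the numbers have no background. The causes were not tested. The ratio within an array already pairs both RNAs. No paired analysis was possible because beyond that pairing there is 1 group of arrays, with no second group to share replicate numbers. Dimness of spots could not be judged without intensities.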
